A study of Mus musculus with 24 samples.

Results

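Transcript levels were examined for 24 probesets, measuring 23 genes, whose signal was higher in NOD than in B10 thymocytes on every array. They were chosen by their measured values, from the 22626 non-control probesets of an Affymetrix mouse 430A array: the lowest of 12 NOD signals had to lie above the highest of 12 B10 signals, the NOD mean signal had to be at least 64, and the NOD mean had to be at least 1.5 times the B10 mean. The difference between the strains is therefore the basis of the choice, and its size is given as a description without a test.

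The 24 arrays were made from sorted thymocytes of females, 6 to 8 weeks old, that all carried the 3A9 T cell receptor (TCR) transgene, which recognizes a hen egg lysozyme peptide on the class II molecule of the H2k haplotype. B10 stands for the C57BL10.H2k strain, and NOD for the NOD.H2k strain, which shares that haplotype and comes from the non-obese diabetic mouse. In each strain 3 cell pools from TCR mice and 3 from TCR insHEL mice were pre-selection cells (PreS, double positive cells without CD69 or clonotype on the surface), 3 pools were cells entering positive selection (S+, from TCR mice), and 3 were cells with the same surface phenotype that had met lysozyme and were entering negative selection (S-, from TCR insHEL mice). In insHEL mice an insulin promoter drives lysozyme in medullary thymic epithelium, so antigen and transgene cannot be told apart in S- cells. Every comparison of strains covers the whole NOD genome outside the shared haplotype and 1 strain of each kind, and each pool is 1 array.

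In the thymus, double positive cells that receive a weak TCR signal survive and become single positive cells, whereas a strong signal on self antigen leads to deletion. The parent NOD strain, from which the H2k mice used here derive, develops spontaneous autoimmune diabetes. The genes below have varied roles: transcription (Ets1), lipid and ganglioside synthesis (Scd2, St8sia1), RNA splicing and export (Rbm39, Sfpq, Slu7, Crnkl1, Fyttd1), signalling at membranes (Clic4, Gnb4, Tlr6, Bex1) and protein cleavage (Scpep1, Nrd1).

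Signals were those of the MAS 5.0 program, on a linear scale in arbitrary units, and a signal under 32 was treated as close to background. T cell markers were high on all arrays, with a summed signal over 6 measured genes of 10487 to 15951 in B10 and 9977 to 15886 in NOD. The summed macrophage and dendritic markers ran from 287 to 1722 in B10 (median 454) and from 341 to 2184 in NOD (median 599), and the summed B cell markers from 143 to 584 and from 175 to 372. Neutrophil markers had the highest single sum of the lists other than T cells and selection stages, at 120.5 to 3167 in B10 (median 292) and 93.4 to 1206 in NOD (median 286). Fibroblast and endothelium markers summed to a median of 163 in B10 and 211 in NOD, and NK cell markers to 169.5 and 107. Thymic epithelium markers had medians of 168 and 159, and erythroid markers 32.8 and 49.3. RNA quality moved with strain: the log2 ratio of the 3′ to the 5′ Gapdh control probeset had a median of 2.03 in B10 (1.13 to 4.88) and 3.02 in NOD (1.53 to 5.84), and that for actin 1.30 and 2.45. Arrays were hybridized on 9 days, 5 of which held both strains (17 arrays). The part of RNA quality and of other cells in the differences below was not tested.

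Complete separation of the strains in this direction was seen for 38 of the 22626 probesets (0.168%), and in the opposite direction for 59 (0.261%). In sorted pools such as these, fewer expressing cells and less RNA per cell cannot be told apart. Of the 38, 13 missed only the limit on the NOD mean and none missed only the ratio. The same limits turned round gave 50 probesets lower in NOD. Over the 24 probesets the ratio of NOD to B10 mean signal had a median of 3.53 and ran from 1.51 to 21.1. In 11 the ratio was at least 4, and in 5 it was under 2. For 8 probesets the B10 mean was under 32, so that the size of their ratio is uncertain. The separation was narrow for 8 probesets, whose lowest NOD signal was less than 1.1 times the highest B10 signal. Within the 5 days that held arrays of both strains the median ratio was 3.66, 4.12, 3.55, 2.96 and 2.47, each bound to be above 1 by the rule and set over unlike populations on some days.

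**Figure D1:**
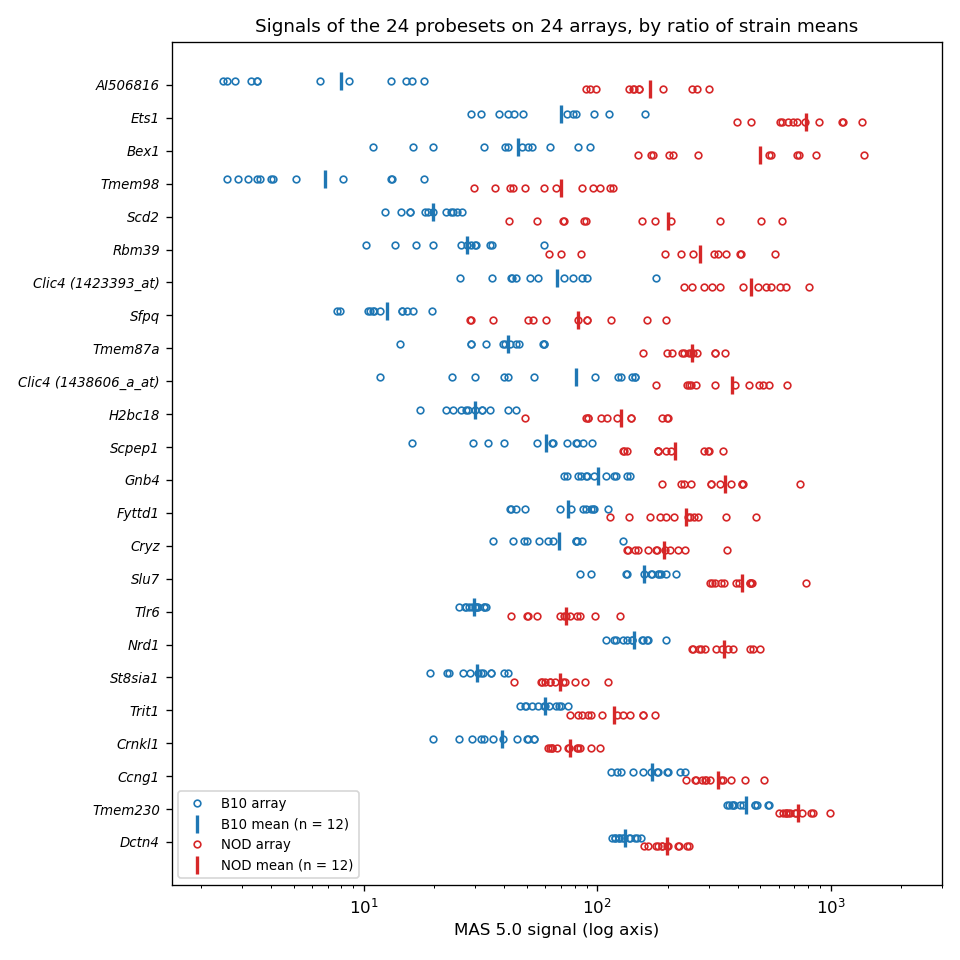
MAS 5.0 signals (log axis) of the 24 probesets on 12 B10 arrays (blue circles) and 12 NOD arrays (red circles), with vertical ticks for the strain means, sorted by the ratio of means from 21.1 (AI506816) to 1.51 (Dctn4). No red circle lies at or below a blue circle of the same probeset, which is the rule by which the probesets were chosen, and the gap between the strains is widest for AI506816, Tmem87a and Ets1.

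The largest ratio was that of AI506816, a transcript with no named function. Its signal in NOD was 89.4 at the lowest, 147 at the median and 302 at the highest, and in B10 it was 2.5, 5.0 and 18.1. B10 signals were thus near background on every array, while the NOD arrays were all measured, and the ratio of 21.1 is a rough figure. Tmem98, which encodes a small membrane protein, was likewise near background in B10 (6.79 ± 5.18, SD, n = 12) and had a NOD mean of 70.1 ± 31.4, with a range of 29.7 to 117.

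Ets1 encodes a transcription factor of the ETS family that is needed for normal T cell development. The signal of its probeset 1422028_a_at ran from 397 through a median of 706 to 1369 in NOD, and from 28.7 through 61.3 to 161 in B10. The means were 787 ± 291 and 69.7 ± 39.5 (SD, n = 12), a ratio of 11.3, and the ratio was 12.8 in PreS, 9.26 in S+ and 11.4 in S- cells. The array holds 3 other probesets for Ets1, and they did not show this separation. Probeset 1452163_at had a mean of 2572 ± 599 in NOD and 2396 ± 508 in B10 (ratio 1.07), probeset 1426725_s_at had means of 1847 and 1569 (ratio 1.18), and probeset 1422027_a_at had means of 101 and 42.7 (ratio 2.36). Signals of different probesets are not on a common scale, and what can be compared is the ratio within each of them.

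Scd2 encodes a stearoyl-CoA desaturase, which puts a double bond into saturated fatty acids. Its probeset 1415824_at ran from 41.9 through 123 to 620 in NOD and from 12.3 through 19.3 to 26.4 in B10. NOD arrays were spread widely, with S- replicates 2 and 3 at 620 and 505 and S- replicate 1 at 71.4, whereas the B10 signals were narrow and below 32. Probeset 1415822_at of the same gene had means of 1859 ± 418 in NOD and 1887 ± 327 in B10 (ratio 0.99), and 1415823_at had 40.8 and 49.3 (ratio 0.83).

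Among probesets annotated to genes of RNA processing, that of Rbm39, an RNA-binding splicing factor, had the largest ratio. Probeset 1446148_x_at ran from 62.2 through 287 to 579 in NOD and from 10.2 through 28.2 to 59.2 in B10, so that the strains were separated by a factor of 1.05 only. The 3 NOD PreS pools from insHEL mice (70.1, 85.5 and 62.2) made up the low end, and the other 9 NOD arrays lay between 195 and 579. Of the other Rbm39 probesets, 1446147_at had means of 382 in NOD and 23.1 in B10, 1442744_at had 240.4 and 78.5, and 1442745_x_at had 277 and 105. In contrast, 1426671_a_at gave 184 ± 80.3 and 192 ± 88.5, and 1438398_at gave 37.8 and 73.1. The 5 kept probesets beside the chosen one thus had ratios from 0.52 to 16.5. The authors listed 1446148_x_at, 1446147_at, 1442744_at and 1442745_x_at under another gene name, with function unknown. Their signal therefore cannot be assigned to Rbm39 with certainty.

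Sfpq is a splicing factor found in nuclear paraspeckles. Probeset 1436898_at ran from 28.5 through 71.3 to 196 in NOD and from 7.7 through 11.4 to 19.5 in B10, a ratio of 6.62 over signals near background. Each of the other 4 probesets of Sfpq had a lower mean in NOD, with ratios of 0.64 to 0.90. Slu7 and Crnkl1 encode proteins of the spliceosome. Slu7 probeset 1447146_s_at had means of 419 ± 129 and 159 ± 40.7 (ratio 2.63), against ratios of 1.44, 0.74 and 0.67 for its other kept probesets. For Crnkl1 the ratio was 1.96 for probeset 1420849_at (76.4 ± 13.3 and 38.9 ± 11.6) and 0.65 for 1420850_at (81.8 ± 31.6 and 125 ± 43.6), so that the 2 probesets of this gene differed in direction.

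Fyttd1, an adaptor of mRNA export, had a signal of 114 to 480 in NOD and 42.4 to 112 in B10, with a ratio of 3.20, and its other kept probeset had a ratio of 1.70. Trit1, an enzyme that modifies transfer RNA, had means of 118 ± 33.9 and 59.5 ± 9.13. H2bc18, a histone H2B gene, had means of 127 ± 48.3 and 30.1 ± 7.71. Histone H2B genes are close to identical in sequence, and the signal cannot be assigned to H2bc18 with certainty.

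Clic4 was the only gene with 2 probesets among the 24. It encodes a protein of the chloride intracellular channel family, which occurs both in the cytosol and at membranes. Probeset 1423393_at ran from 234 through 455 to 809 in NOD and from 25.8 through 53.6 to 178 in B10, and probeset 1438606_a_at from 179 through 355 to 651 and from 11.7 through 75.6 to 145. The ratios were 6.80 and 4.65, and the third probeset of the gene, 1423392_at, had means of 146 ± 33.7 and 68.1 ± 14.2 (ratio 2.14). All 3 probesets of Clic4 were higher in NOD.

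Gnb4 encodes a beta subunit of heterotrimeric G proteins. Probeset 1419469_at had a range of 190.0 to 742 in NOD and 72.1 to 138 in B10 (ratio 3.50), and the other probeset, 1419470_at, had means of 325 ± 56.6 and 166 ± 30.5 (ratio 1.96). Tlr6 is a Toll-like receptor that acts with Tlr2 in the recognition of bacterial lipopeptides. Its signal was 42.7 to 125 in NOD, with a median of 72.8, and 25.5 to 33.3 in B10, with a median of 30.1, so that the B10 arrays lay in a narrow band near background. St8sia1, the enzyme that makes the ganglioside GD3, had means of 69.5 ± 17.5 and 30.6 ± 6.80, and its other probeset had a ratio of 1.49.

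Scpep1, a serine carboxypeptidase of lysosomes, ran from 129 through 189 to 346 in NOD and from 16 through 64.4 to 94.9 in B10 (probeset 1455908_a_at, ratio 3.56), and its other probeset had means of 127 and 82.1 (ratio 1.55). Nrd1 encodes nardilysin, a metallopeptidase of the M16 family. It had means of 348 ± 85.4 and 144 ± 24.9 on probeset 1449716_s_at (ratio 2.41), and of 304 ± 76.9 and 365 ± 65.6 on 1424391_at (ratio 0.83). Cryz, a quinone reductase, had a ratio of 2.82 on the chosen probeset and 1.03 on the other.

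Tmem87a, which encodes a membrane protein of the Golgi, was among the best separated, with 157 to 353 in NOD and 14.3 to 59.4 in B10 (ratio 6.15), and it has no other probeset. The smallest ratios were those of Ccng1 (cyclin G1, a target of p53; 1.91), Tmem230 (a vesicle membrane protein; 1.66) and Dctn4 (a subunit of dynactin, which works with the motor dynein; 1.51). For these 3 the strains were close, and the lowest NOD signal exceeded the highest B10 signal by a factor of 1.00, 1.1 and 1.03. Just inside the limit of 64 on the NOD mean were St8sia1 (69.5), Tmem98 (70.1) and Tlr6 (73.3). Outside it were 1435792_at (63.7) and 1420491_at (57.9), which are given by probeset only, and Tceal8 (52.1).

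Other probesets were present for 15 of the 23 genes. Of their 36 other probesets 28 passed the filter described below, and the ratio of means was at least 1.5 for 8 of them (in 6 genes), between 1.2 and 1.5 for 4, between 0.8 and 1.2 for 11 and under 0.8 for 5. In 5 genes, namely Scd2, Sfpq, Cryz, Nrd1 and Crnkl1, none of the other kept probesets had a ratio above 1.2. For Clic4, Gnb4 and Scpep1 all other kept probesets were higher in NOD by at least 1.5 times. The 8 at a ratio of at least 1.5 include Fyttd1 1451325_at and Rbm39 1446147_at. Their B10 means were 20.7 and 23.1, near background, and such probesets can pass the filter through NOD alone. The remaining Fyttd1 probeset, 1451324_s_at, did not pass the filter and had a ratio of 1.12, so Fyttd1 is not counted with these genes. The difference between strains therefore held across the probesets of some genes and was limited to part of the probesets in others. Whether probes overlap sequence variants between the strains, or sequence shared with other genes, was not tested. A difference in signal may thus not be a difference in transcript level.

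**Figure D2:**
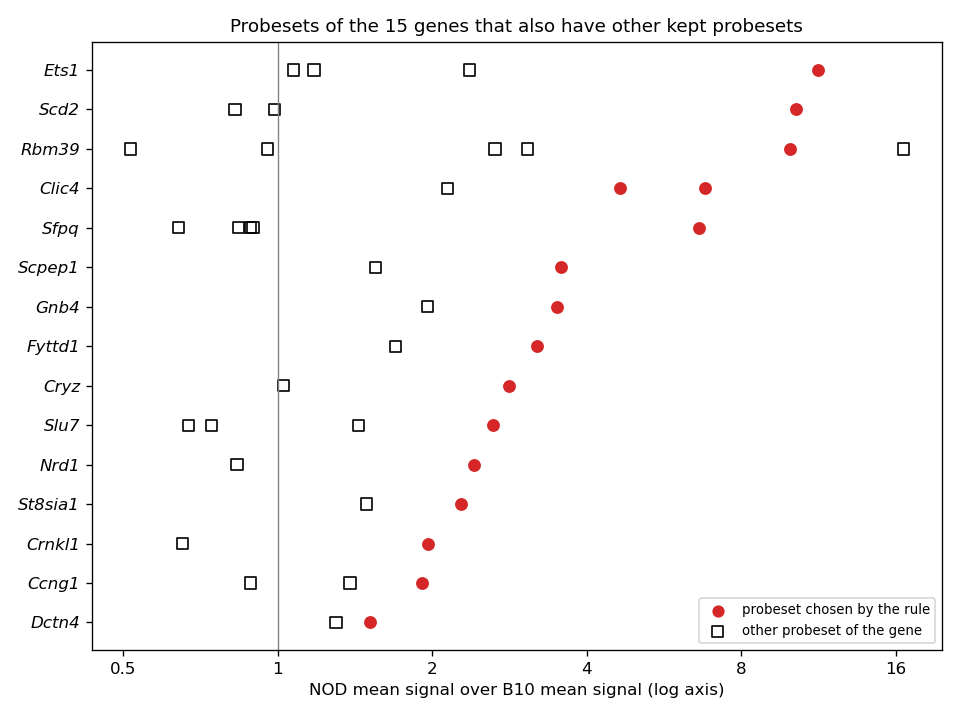
Ratio of the NOD to the B10 mean signal (log axis, 12 arrays in each mean) for the kept probesets of the 15 genes that have more than the chosen one, with chosen probesets as red circles and the others as open squares. The grey line marks a ratio of 1, around or below which lie other probesets of Ets1, Scd2, Rbm39, Sfpq, Cryz, Slu7, Nrd1, Crnkl1 and Ccng1.

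To follow the 24 probesets through selection, S+ was compared with PreS cells and S- with S+ cells in each strain on its own. The test (limma, Benjamini-Hochberg adjusted over 12838 probesets that reached a signal of 32 on all 3 arrays of at least 1 condition, threshold 0.05) uses differences within a strain. The rule set no condition on these directly, but by setting extremes over all populations against each other it limits how far a probeset can change and still be chosen. All 24 passed this filter, 16 of them in a B10 condition and 8 through NOD conditions only.

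In B10 S+ cells 4 of the 24 probesets were lower than in PreS cells and 0 were higher, and in NOD S+ cells the counts were the same. Over all probesets 9.44% were lower and 7.37% higher in B10, and 8.66% were lower and 6.13% higher in NOD. In total 16.7% of the 24 were called in each strain, against 16.8% of all probesets in B10 and 14.8% in NOD. Of the 16 that passed the filter in a B10 condition, 4 were called in B10, while the other 8 lay near background there and could hardly be called, so nothing is read from these shares. The median log2 change was 0.07 in B10 and -0.03 in NOD, beside 0.04 and 0.02 over all probesets. Bex1 and both Clic4 probesets were called in both strains, Scpep1 in B10 and Tmem98 in NOD. With hybridization day as a block, the 4 calls in B10 remained, and 0 of the 24 were called in NOD (limma, 3 past an unadjusted 0.05), where that fit called 5 of all 12838 probesets. That fit left 3 residual degrees of freedom in place of 9 in either strain, and PreS and S+ cells shared 1 day in NOD and 2 in B10, so the calls lost in NOD cannot be read as dependence on the day.

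Bex1 is an X-linked gene whose product is an adaptor of neurotrophin receptor signalling, known mainly from brain. Its signal was 546, 869 and 554 in the NOD PreS pools of TCR mice and 1390.2, 729 and 717 in those of insHEL mice. NOD S+ pools had 269, 204 and 149.6, and S- pools 174, 211 and 170.4. In B10 the signals were 93.1, 62.9, 82.4, 40.4, 52.3 and 41.4 in PreS, 16.3, 10.9 and 19.7 in S+ and 50.7, 32.7 and 47.4 in S- cells. S+ and PreS did not overlap in either strain. The B10 S+ signals lay under 32, so the size of the fall in B10 is uncertain.

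The log2 change of Bex1 from PreS to S+ was -2.08 in B10 (standard error 0.30, limma adjusted p = 0.000276) and -2.0 in NOD (standard error 0.33, limma adjusted p = 0.00214). The difference between these changes did not pass the test (0.09 on the log2 scale, standard error 0.46, limma adjusted p = 0.984), and with B10 S+ signals near background its size cannot be read. On hybridization days that held both populations, Bex1 was 869 in NOD PreS and 204 in S+ on 1 day, and in B10 it was 52.3 and 19.7 on another and 40.4 and 10.9 on yet another. With the day as a block the log2 change in NOD was -2.16 (limma adjusted p = 0.628). From S+ to S- the log2 change was 1.46 in B10 (limma adjusted p = 0.0536) and -0.16 in NOD, and the strain difference in this change was -1.62 (limma adjusted p = 0.35), which rests on the same B10 S+ signals. In B10 the S- signals all lay above the S+ signals, while in NOD they overlapped.

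Clic4 probeset 1423393_at had signals of 642, 809 and 528 (TCR) and 490.2, 604 and 557 (insHEL) in NOD PreS cells, 255, 234 and 286 in S+ and 309, 336 and 420.2 in S- cells. In B10 it had 86.0, 71.7, 55.8, 178, 78.8 and 90.5 in PreS, 42.5, 25.8 and 35.3 in S+ and 44.8, 43.0 and 51.3 in S- cells. In both strains the S+ signals all lay below the PreS signals. Its log2 change was -1.46 in B10 (limma adjusted p = 0.00311) and -1.29 in NOD (limma adjusted p = 0.00197). Probeset 1438606_a_at changed by -2.60 in B10 (standard error 0.32, limma adjusted p = 6.63e-05) and by -0.93 in NOD (standard error 0.22, limma adjusted p = 0.0153). The strain difference of these changes was 1.67 (standard error 0.39, limma adjusted p = 0.0663), which missed the threshold, and the B10 S+ mean behind it was 25.6, near background. It passed under quantile normalization (1.73, limma adjusted p = 0.0435), with a floor of 16 (1.48, limma adjusted p = 0.0477), without B10 S+ replicate 1 (2.10, limma adjusted p = 0.00427) and without NOD S+ replicate 3 (1.77, limma adjusted p = 0.0287). In the NOD strain with day as a block the changes of both probesets were -1.84 and -1.34 (limma adjusted p = 0.432 and 0.628), and without NOD S+ replicate 2 that of 1438606_a_at was -0.91 (limma adjusted p = 0.0708).

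Among all members only these 2 genes, Bex1 and Clic4, were called lower in S+ cells of both strains, and their promoter sequences are shown for that reason (RefSeq, GRCm38.p6, 250 bases before to 50 after the annotated start, on the strand of the gene, CG dinucleotides in capitals).
Bex1, chrX:136215464-136215763, minus strand: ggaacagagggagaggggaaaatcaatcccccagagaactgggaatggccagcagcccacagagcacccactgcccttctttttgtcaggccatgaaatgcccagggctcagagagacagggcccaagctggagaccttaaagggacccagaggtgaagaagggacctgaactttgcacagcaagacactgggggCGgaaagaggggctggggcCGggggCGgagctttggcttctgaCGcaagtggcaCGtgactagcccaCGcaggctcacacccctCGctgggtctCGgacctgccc
Clic4, chr4:135272711-135273010, minus strand: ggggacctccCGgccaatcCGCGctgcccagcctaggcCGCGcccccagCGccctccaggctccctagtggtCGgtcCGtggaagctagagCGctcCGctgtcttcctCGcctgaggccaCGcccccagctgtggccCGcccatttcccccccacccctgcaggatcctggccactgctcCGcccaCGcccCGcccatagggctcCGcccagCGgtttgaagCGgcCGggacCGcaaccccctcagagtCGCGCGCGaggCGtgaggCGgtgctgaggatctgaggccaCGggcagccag
The Bex1 window holds 8 CG dinucleotides and the Clic4 window 28, beside a median of 7 over 32851 mouse promoters of the same length, of which 54.2% hold at most 8 and 14.2% at least 28. Promoters were found for 18 of the 23 genes (21 windows). Since Ets1 was among the genes, the ETS motif CCGGAAGT was searched on both strands, and 1 of the 21 windows held it (4.76%, that of Tmem230), against 3.89% of all promoters. The match describes letters and not binding.

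**Figure D3:**
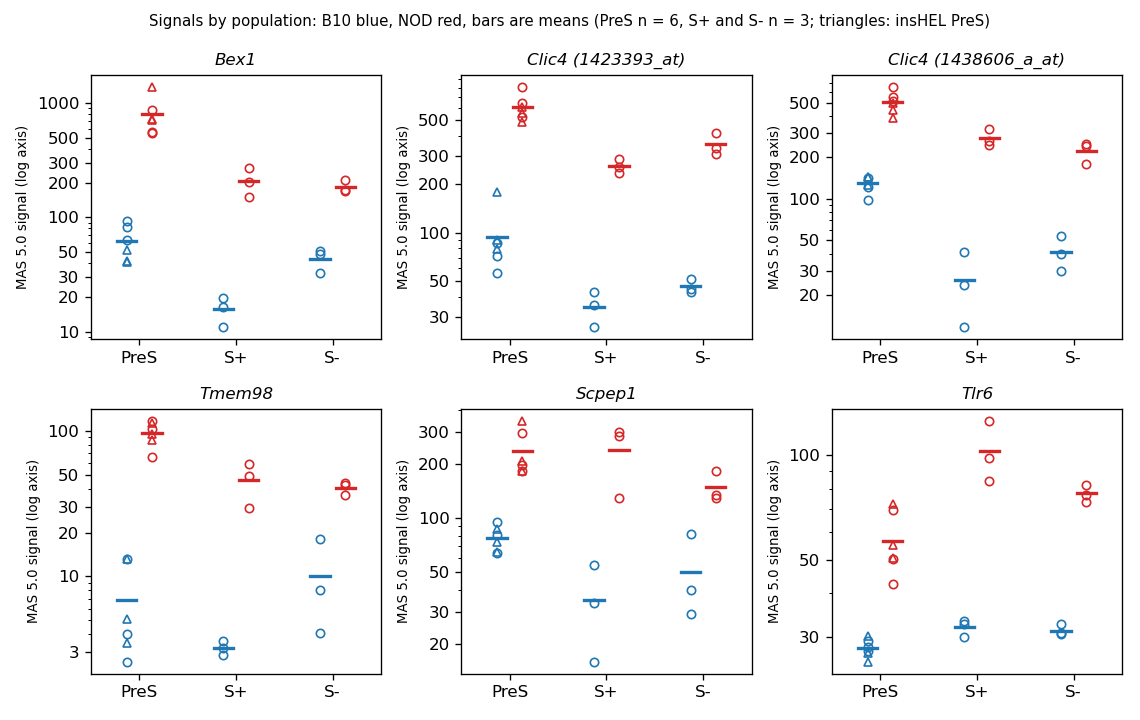
MAS 5.0 signals (log axis) by population for Bex1, both Clic4 probesets, Tmem98, Scpep1 and Tlr6, with B10 in blue and NOD in red. Each symbol is 1 array (triangles for PreS pools of insHEL mice) and bars are means over 6 PreS, 3 S+ or 3 S- arrays; Bex1 and Clic4 fall from PreS to S+ in both strains, while Scpep1 falls in B10.

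Scpep1 fell in B10 S+ cells, from 64.1 to 94.9 in the 6 PreS pools to 55.1, 16 and 33.9 in the S+ pools. In NOD the 6 PreS pools had 182 to 346, and the S+ pools had 286, 301 and 129. B10 S+ signals thus all lay below PreS, and NOD S+ signals overlapped with PreS. The log2 change was -1.41 in B10 (standard error 0.36, limma adjusted p = 0.0141) and -0.12 in NOD, and the difference between strains did not pass the test (1.29, standard error 0.51, limma adjusted p = 0.416). Without B10 S+ replicate 2, the lowest of the 3, the B10 change was -0.91 (limma adjusted p = 0.089).

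Tmem98 fell in NOD S+ cells, from 66.5 to 117 in the 6 PreS pools to 58.9, 48.8 and 29.7 in S+, and S- pools had 43.5, 42.4 and 36.4. Its log2 change from PreS to S+ was -1.33 (standard error 0.25, limma adjusted p = 0.00398), and -1.27 with day as a block (limma adjusted p = 0.712). In B10 all Tmem98 signals were at or below 18.1, and a change there could not be measured at these signals. On the day that held both populations the NOD signal was 103 in PreS and 48.8 in S+.

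Tlr6 had NOD PreS signals of 42.7 to 72.1 and S+ signals of 125, 98.0 and 84.4, which did not overlap. The change was 0.68 on the log2 scale (standard error 0.24, limma adjusted p = 0.072) and missed the threshold. It passed when all 24 arrays were in 1 fit (limma adjusted p = 0.0129), with a floor of 16 (limma adjusted p = 0.0443) and without NOD PreS insHEL replicate 1 or NOD S+ replicate 3 (limma adjusted p = 0.0334 and 0.0451). In B10 it was 0.06, over signals near background. Cryz in B10 (-0.78, limma adjusted p = 0.095) and H2bc18 in NOD (0.76, limma adjusted p = 0.147) were also past an unadjusted 0.05 and not past the threshold, and passed without B10 PreS TCR replicate 2 (-0.93, limma adjusted p = 0.0351) and without NOD PreS TCR replicate 1 (0.95, limma adjusted p = 0.0394). An unadjusted 0.05 was passed by 29.3% of all probesets in B10 and 30.5% in NOD, beside 5 and 7 of the 24 (limma). The Ets1 probeset changed by 0.42 in B10 and 0.25 in NOD, and neither change passed the test.

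**Figure D4:**
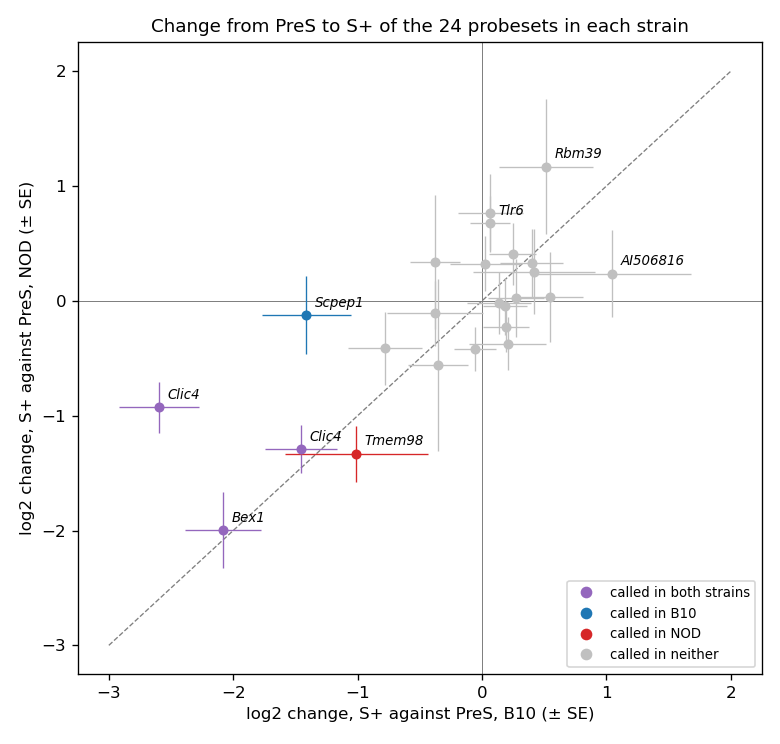
Log2 change from PreS to S+ cells in B10 (horizontal, 3 against 6 arrays) and NOD (vertical, 3 against 6 arrays) for each of the 24 probesets, with standard errors as bars and a dashed line of equal change. Bex1 and both Clic4 probesets are called in both strains (purple), Scpep1 in B10 (blue, -1.41 and -0.12) and Tmem98 in NOD (red, -1.33, with B10 signals near background), and the other 19 are called in neither (grey).

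Between S+ and S- cells 0 of the 24 probesets were called in either strain by limma, with 3 past an unadjusted 0.05 in B10 (Bex1, Cryz and Sfpq, the last with B10 signals of 7.7 to 19.5, near background on all arrays) and 0 in NOD. Over all probesets 1.67% were called in B10 and 0% in NOD, and 11.7% and 4.4% were past an unadjusted 0.05 (limma). For Bex1 the rise in B10 passed with the filter at a signal of 64 (1.46, limma adjusted p = 0.038) and with all 24 arrays in 1 fit (limma adjusted p = 0.0476). Bex1 meets the filter at 64 through NOD conditions only, where it is high by the rule, so the first of these passes is no support for a rise in B10. The median log2 change of the 24 was -0.02 in B10 and -0.05 in NOD, beside -0.01 and 0.04 over all probesets.

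The change between populations was compared between strains in 1 fit of 24 arrays. In S+ against PreS 0 of the 24 were called by limma (3 past an unadjusted 0.05: Clic4 1438606_a_at, Scpep1 and Tlr6), against 0.358% of all probesets (8.84% past an unadjusted 0.05). In S- against S+ 0 were called (2 past an unadjusted 0.05: Bex1 and Clic4 1438606_a_at), against 0.148% of all probesets (7.71% past an unadjusted 0.05). Tlr6 passed the filter through NOD only, with B10 signals of 25.5 to 33.3. Of the 16 members measured in B10, 0 were called in either of these comparisons.

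Whether insHEL altered the levels before selection was asked by comparing PreS cells of TCR insHEL mice with those of TCR mice, 3 arrays against 3. In B10 0 of the 24 were called by limma (1 past an unadjusted 0.05, Bex1), against 0% of all probesets, and in NOD 0 were called (2 past an unadjusted 0.05, Rbm39 and Tmem87a), against 0.0312%. An unadjusted 0.05 was passed by 2.24% of all probesets in B10 and 10.4% in NOD (limma). Rbm39 had NOD signals of 413, 355 and 230 in TCR and 70.1, 85.5 and 62.2 in TCR insHEL pools, which did not overlap. The log2 change was -2.06 (standard error 0.39, limma adjusted p = 0.154), and without NOD S+ replicate 3, an array that enters this comparison through the spread alone, the limma adjusted p was 0.0228.

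To see whether related genes differed in the same way, 124 relatives of the members in 10 families were compared between strains, with 1 probeset for each gene. The families were written with lists of genes higher in NOD at hand, and they are no independent evidence of direction. Of 65 relatives that passed the filter 9 were higher and 4 lower in NOD (limma), where over all genes outside the members, with 1 probeset each, 4.74% were higher and 6.34% lower. With hybridization day as a block 2 of them were higher (H1f2 and Dpp7) and 0 lower. The shares over all genes belong to the fit without that block.

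In the family of Bex1, 3 of 6 relatives were higher in NOD. Tceal8 had means of 52.1 ± 9.79 and 23.0 ± 7.12. It separated the strains on all arrays and missed only the limit on the NOD mean, so its values are a description. Bex4 had 32.6 ± 9.97 and 13.5 ± 6.24, near background in B10, and Tceal9 had 703 ± 419 and 421 ± 232 (log2 0.71, limma adjusted p = 0.0164). With day as a block neither Bex4 nor Tceal9 was called (limma adjusted p = 0.675 and 0.704). Of the 17 other ETS factors 0 were called (limma), with 2 past an unadjusted 0.05. The one measured relative of Clic4, Clic1, was lower in NOD (1148 ± 405 and 1533 ± 311, log2 -0.62, limma adjusted p = 0.0253; 0.587 with day as a block), the reverse of Clic4.

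Dpp7, a lysosomal dipeptidyl peptidase listed with Scpep1, had means of 125 ± 68.2 and 39.3 ± 14.5 (log2 1.59, limma adjusted p = 5.1e-06; 0.00199 with day as a block). Of 8 measured G protein subunits 2 were called higher and 0 lower (limma). Those called were the gamma subunits Gng10 (912 ± 449 and 388 ± 117, log2 1.1) and Gng12 (log2 0.65). Gng2 (36.2 and 83.9, log2 -1.34, limma adjusted p = 0.0535) and Gnb2 (log2 -1.08, limma adjusted p = 0.0747) were lower and missed the threshold. The median log2 difference of the 8 was 0.04. Tlr1, which like Tlr6 pairs with Tlr2, had means of 133 ± 122 and 44.8 ± 29.8 (log2 1.23, limma adjusted p = 0.000748; 0.0761 with day as a block). Elovl6, which elongates fatty acids, was higher (log2 0.45), as was the linker histone H1f2 (379 ± 129 and 254 ± 117, log2 0.72), and Dpp3, Pitrm1 and Uqcrc1 were lower (log2 -0.71, -0.64 and -0.68).

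Several of these relatives are also neighbours on the chromosome. Genes starting within 1000 kb of a member gene's start in the RefSeq annotation were taken as neighbours, and of 275 that passed the filter 26 (9.45%) were higher and 20 (7.27%) lower in NOD, beside 4.74% and 6.34% of all genes outside the members. Of the 26, 5 had a B10 mean under 32, and 1 (Tceal8) separated the strains on all arrays. With day as a block 7 were higher and 6 lower. The shares over all genes are those of the fit without that block, so no excess is read from these counts. Around Bex1 4 of 8 neighbours were higher (Gprasp1, Bex4, Tceal8 and Tceal9) and 0 lower. Around Tlr6 3 of 14 were higher, namely Tlr1, Klhl5 and Gm3716, and around Tmem87a 5 of 22 were higher (Vps39, a subunit of the lysosomal tethering complex HOPS, Ehd4, Ltk, Nusap1 and Zfp106) and 1 lower. Each neighbour was read from its kept probeset with the highest mean signal, and other probesets of these genes were not compared. For Zfp106 the authors listed another probeset as lower in NOD.

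Near Clic4, Rsrp1 (1024 and 381, log2 1.52), Rcan3, a regulator of calcineurin (93.8 and 41.5, log2 1.07), and Pnrc2 (646 and 244, log2 1.32) were higher, and Paqr7 and Eloa were lower, of 21 neighbours. Next to Ccng1, 2 of 3 neighbours (Hmmr and Nudcd2) were higher. In contrast 5 of 34 neighbours of H2bc18 were lower and 0 higher, and Ndufs5, near Trit1, was lower with means of 38.1 and 305 (log2 -3.06, limma adjusted p = 2.16e-11). Of the neighbours named here, Vps39, Ehd4, Ltk, Rcan3, Gm3716, Nudcd2 and Ndufs5 were also called with day as a block. Ltk and Gm3716 had B10 means of 7.69 and 3.08, near background, so the size of their differences is uncertain. Chromosomes 2, 4 and 11 held 4 member genes each (17.4% of the 23), beside 8.08%, 6.29% and 8.84% of the genes that passed the filter.

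**Figure D5:**
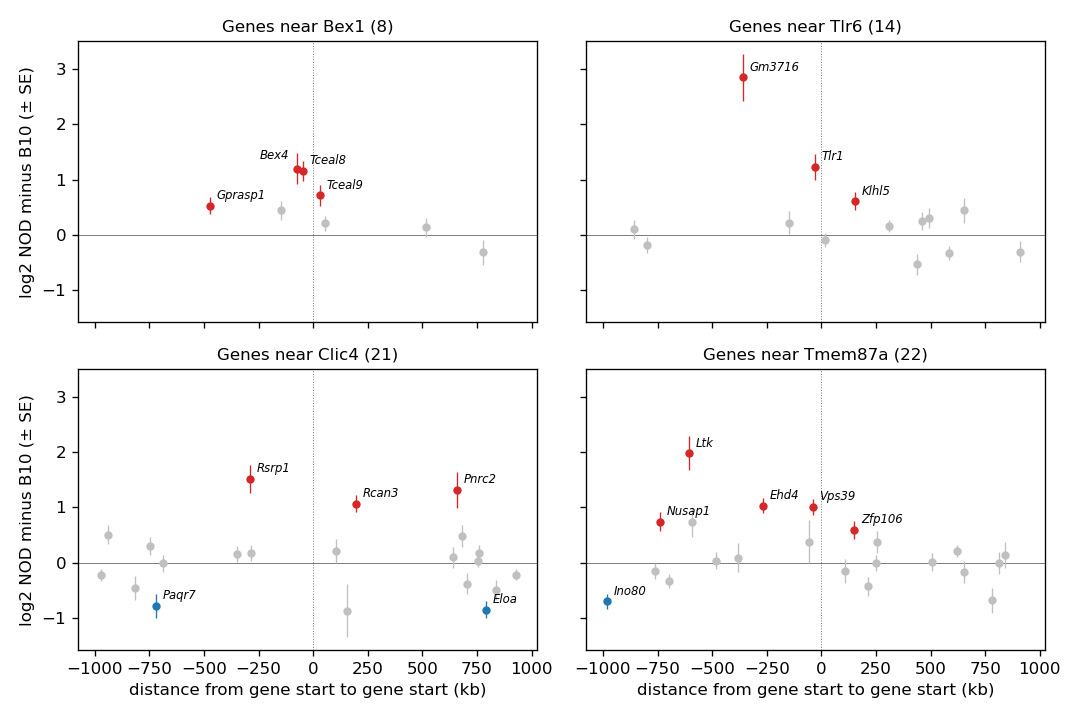
Log2 difference between NOD and B10 (12 arrays each, limma, bars are standard errors) of genes starting within 1000 kb of Bex1, Tlr6, Clic4 and Tmem87a, by distance from the start of that gene. Genes called higher in NOD are red, those called lower are blue and the others grey; 4 of 8 genes are red around Bex1, 3 of 14 around Tlr6, 3 of 21 around Clic4 and 5 of 22 around Tmem87a.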

How the data were processed

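Thymocyte RNA was amplified in 2 rounds, and the authors computed MAS 5.0 signal intensity for 22690 probesets per array, bringing trimmed means to 150, and deposited it on a linear scale. Which hybridization day belonged to which array was read from the deposited experiment files, and other entries of those files were not used.

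From the deposited intensity values 64 control probesets were removed, 33 zeros were replaced by 0.1, and after standardization of log2 values within arrays a common scale was restored. Probesets reaching a signal of 32 on all 3 arrays of at least 1 of 8 conditions were kept (12838 of 22626), in place of present calls. Symbols came from the array annotation, updated through RefSeq gene identifiers, and 20393 probesets had 1 symbol, 691 several and 1606 none. Annotation coordinates (GRCm38.p6) served to find neighbours, since no build is named in the sources used here. One further item that met the rule is not reported.

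Comparisons used limma 3.58.1 in R 4.3.3, each strain alone with both PreS groups merged for populations, 4 groups for insHEL against TCR, and all 24 arrays for differences between strains, with Benjamini-Hochberg adjustment over all kept probesets and a threshold of 0.05. The median residual SD was 0.363 in B10 and 0.444 in NOD on the log2 scale, and correlations between replicates ran from 0.843 to 0.967. The number of arrays limits the precision. The fits were tested on simulated data with known changes. The members, gene families and tests were chosen with earlier results of these data known.

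Named in full were genes with several chosen probesets, the 12 largest ratios, the 10 highest NOD means, called members and called relatives; others are given by ranges and counts. Alternatives were MAS 5.0 scaling only, quantile normalization, no filter, a filter at 64, a floor of 16, replicate number or hybridization day as a block, the methods' t-test, 1 fit of 24 arrays and leaving out each array.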

Additional observations from a re-analysis of the deposited data

Results flagged for a closer look

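Within the 6 PreS arrays of a strain a single array stood apart from the other 5 in 3 of 48 tests, where chance alone gives about 1 in 20. Clic4 probeset 1423393_at was 178.3 in B10 PreS insHEL replicate 1, with the others at 55.8 to 90.5. The same probeset was 809 in NOD PreS TCR replicate 2, with the others at 490.2 to 641.6. Tmem98 was 66.5 in NOD PreS TCR replicate 1, with the others at 86.4 to 117. The comparisons of Clic4 and Tmem98 that were called in their strain stayed called when these arrays were left out.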

How the results depend on the processing

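The rule gave 19 probesets with a ratio of at least 2, 34 with a NOD mean of at least 32, 26 on standardized and 29 on quantile normalized values, and 23 to 30 when 1 array was left out. Of 168 refits of the 8 calls of single members 162 kept the call, 6 lost it and 0 reversed. Those lost were the 4 NOD calls of S+ against PreS with hybridization day as a block, that of Clic4 1438606_a_at without NOD S+ replicate 2 (-0.91, limma adjusted p = 0.0708) and that of Scpep1 without B10 S+ replicate 2 (-0.91, limma adjusted p = 0.089).

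In S+ against PreS the count of called members was 3 to 5 without 1 array in B10 and in NOD, and 0 in NOD with hybridization day as a block, a fit with 3 residual degrees of freedom. In S- against S+ in B10 it was 1 (Bex1) with the filter at 64, which Bex1 meets through NOD conditions only, and with all 24 arrays in 1 fit. For the strain difference in S+ against PreS it was 1 (Clic4 1438606_a_at) under quantile normalization and with the floor of 16, and 0 to 1 without 1 array. For NOD insHEL against TCR it was 0 to 1 without 1 array, and it was 1 without NOD S+ replicate 3. In the other comparisons it was 0 under each alternative, the methods' t-test included. The cause of these changes was not tested.

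For relatives, the refits covered the 141 kept genes of all families, including families that hold no member. The 65 described above are those in families with a member. Of the 141, 32 were called (22.7%), 9 with hybridization day as a block, 24 to 43 without 1 array and 24 without the filter. Over all genes outside the members 4.74% were higher and 6.34% lower. The families were written with lists of genes higher in NOD at hand, so nothing is read from this share. Shares over all genes are not given for these alternatives. Among the fits without 1 array the lowest count, 24, was that without B10 S+ replicate 3 or NOD S+ replicate 1. The 70 calls of relatives and neighbours include genes not named here and genes of families that hold no member. All kept their direction in 2228 refits, and 213 refits lost the call.

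With replicate number as a block 4 members were called in S+ against PreS in B10 and 4 in NOD, and no other call of members changed. Of the 141 relatives in all families 34 were called. Deviations of same-numbered arrays had a mean correlation of 0.0356 over 84 pairs. Single pairs ran from -0.324 to 0.632, with 32 over 0.1, and the numbers were not taken as pairs. MAS 5.0 scaling alone moved the median of all probesets in NOD S+ against PreS by 0.14. Signals under 32 limit what can be said of members near background in B10.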
